A study of Mus musculus with 6 samples.

Results

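The collagen chain genes are the genes whose symbol is Col, a number, the letter a and a second number. The symbols were matched to the Ensembl identifiers of the deposited count table, and 44 of its 46078 genes carried such a name. They were followed in 6 RNA sequencing libraries of the MLE12 line, immortalized epithelial cells of the mouse lung that descend from a lung tumour of a mouse carrying a large T antigen transgene under the surfactant protein C promoter. The 4 mutant groups were the Lingo1 KO, Lingo2 KO, Lingo3 KO and TROY KO lines, each with its monolayer wounded by a pipet tip and collected 24 hours later. The 2 wild-type groups were the parental line 24 hours after the same scratch and the parental line without a scratch. Each group had 1 library, so no p-value was computed, and line, culture and genotype cannot be told apart. The sources used here do not say by which method the genes were knocked out or whether a line is 1 clone. In such bulk libraries, fewer cells that make a transcript and less of it per cell cannot be told apart either.

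Collagens are secreted proteins whose chains wind around each other into a rope-like helix before export, and each collagen type is assembled from a fixed choice of chains. Fibrillar collagens such as types I, V and XI form the cables of connective tissue and are known mainly from fibroblasts, bone and cartilage. Type IV collagens form the sheet-like network of the basement membrane under epithelia, type VI forms beaded filaments beside it, FACIT collagens sit on the surface of fibrils, and multiplexins such as type XVIII are basement membrane proteoglycans. In the lung, epithelium rests on a type IV network, and wound closure takes place on that matrix.

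Levels are given in CPM, counts per 1000000 scaled reads, and between genes in RPKM, which divides CPM by the length of the annotated exons in units of 1000 bases. Of the 44 genes, 19 averaged 1 CPM or more across the libraries, and these were among the 12078 genes tested. A gene is called higher or lower in one library than in another when the fold was at least 2 and even the near bound of its 95% interval exceeded 1.5-fold. The intervals, given in parentheses, are exact Clopper-Pearson intervals on the 2 counts and cover counting error only. The mean level used by the filter includes the high library: Col5a1 passed with 1.41 CPM and would have stood at 0.893 CPM without the Lingo3 KO library. Just inside the filter lay Col5a1 and Col11a1 (2.05 CPM), and just outside it Col5a2 (0.928 CPM) and Col15a1 (0.798 CPM).

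The libraries held between 28109825 and 30776294 reads in genes, which puts 3 counts at 0.0984 to 0.108 CPM. Reads without a counted feature made up 4.98% to 6.41% of uniquely aligned reads in the 4 mutant libraries and 7.80% to 8.02% in the 2 parental ones, and the part of this difference in the results was not tested. Epithelial and alveolar markers were uneven. Every library held 4540 to 6247 reads of Nkx2-1 and 18045 to 29542 of Cdh1, but Sftpd had 0 and Sftpa1 at most 1. Krt18, which failed the level filter, had 9 to 14 reads in the mutants, beside 13453 to 15391 of Krt8. The 10 alveolar and epithelial markers summed to 1887 to 2047 CPM in the mutants, against 1263 and 1359 CPM in the scratched and unscratched parental libraries, and the part of this in the results was not tested. Of 7 tested, Sftpb was higher in all 4 mutants than in the scratched parental library (2.44-fold to 4.61-fold), Sftpc in the 3 Lingo mutants (2.22-fold to 4.47-fold) and Epcam in Lingo2 KO and Lingo3 KO, where 1.06% to 4.63% of all tested genes were higher. The Epcam calls were lost against the unscratched parental library. The scratched parental library held a small amount of endothelial transcripts. The 5 endothelial markers summed to 1.13 to 2.23 CPM in the 4 mutants and 1.29 CPM in the unscratched parental library, against 10.6 CPM in the scratched one. There Vwf was 9.95-fold higher than in the unscratched library (5.95 to 17.8). Vwf stood at 0.614, 0.389, 1.21 and 0.499 CPM in the Lingo1, Lingo2, Lingo3 and TROY mutants. It reached the level filter only through the scratched parental library, which favours that call. Calls are therefore given against both parental libraries.

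Collagen genes took 137707, 111305, 115162 and 141724 reads in the Lingo1 KO, Lingo2 KO, Lingo3 KO and TROY KO libraries, against 113055 in the scratched and 122883 in the unscratched parental library. Type IV chains supplied most of them in every library, between 70.9% and 82.5% in the mutants and 84.1% to 84.5% in the parental libraries. Per length, Col4a5 and Col4a1 were the highest collagen transcripts in every library, at 102.2 and 102.6 RPKM in Lingo3 KO, against 201.0 and 71.7 RPKM in the scratched parental library. The place of Col1a1 in this order changed between libraries. It had 25.9, 20.7, 60.6 and 22.3 RPKM in the Lingo1, Lingo2, Lingo3 and TROY mutants, against 6.82 RPKM in the scratched and 9.49 RPKM in the unscratched parental library. In the Lingo3 KO library it lay beside Col4a4 (60.1 RPKM), while in both parental libraries it lay below Col6a2, Col4a3, Col4a6 and Col16a1. The fibrillar class was a minor part of the collagen reads. It took 3.59% of collagen reads in the Lingo1 KO library (3.49% to 3.69%), 3.64% in Lingo2 KO, 10.9% in Lingo3 KO (10.7% to 11.1%) and 3.29% in TROY KO. The scratched parental library stood at 1.61% (1.54% to 1.69%) and the unscratched one at 1.79%. Col1a1 supplied 94.5% to 96.8% of the fibrillar reads in the mutants and 74.7% to 81.1% in the parental libraries. Without that gene the fibrillar share of collagen reads was 0.172% to 0.392% in the mutants and 0.344% to 0.414% in the parental libraries. The multiplexin share, which is almost wholly Col18a1, was 1.47% in Lingo1 KO, 2.55% in Lingo3 KO and 0.876% in TROY KO, against 0.689% in the scratched and 0.720% in the unscratched parental library.

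**Figure D1:**
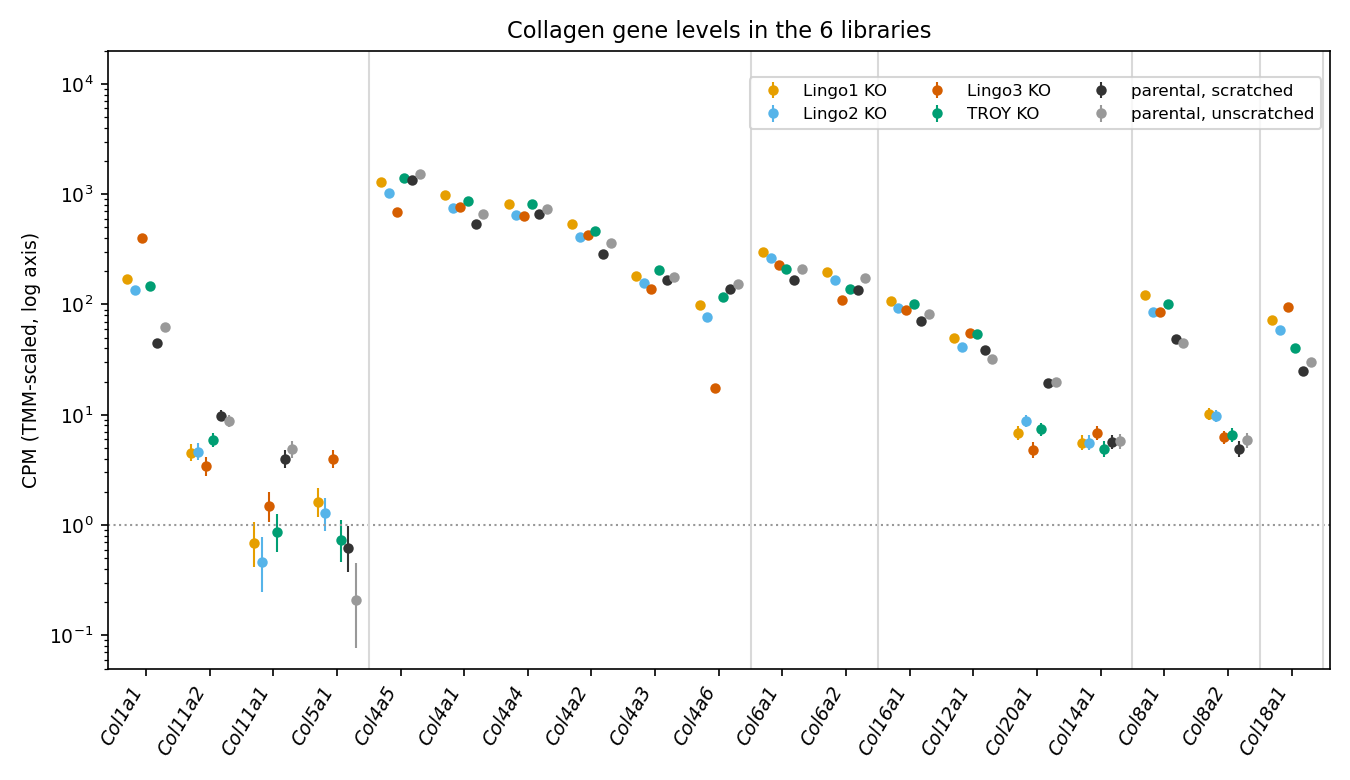
Level of each of the 19 tested collagen genes in CPM (log axis) in the 6 libraries, 1 point per library with its 95% Poisson interval for counting error; grey lines separate the fibrillar, type IV, type VI, FACIT, type VIII and multiplexin classes and the dotted line marks 1 CPM. Col1a1 reaches 397.7 CPM in the Lingo3 KO library and 44.8 CPM in the scratched parental one, while Col4a6 falls to 17.5 CPM in the Lingo3 KO library.

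**Figure D2:**
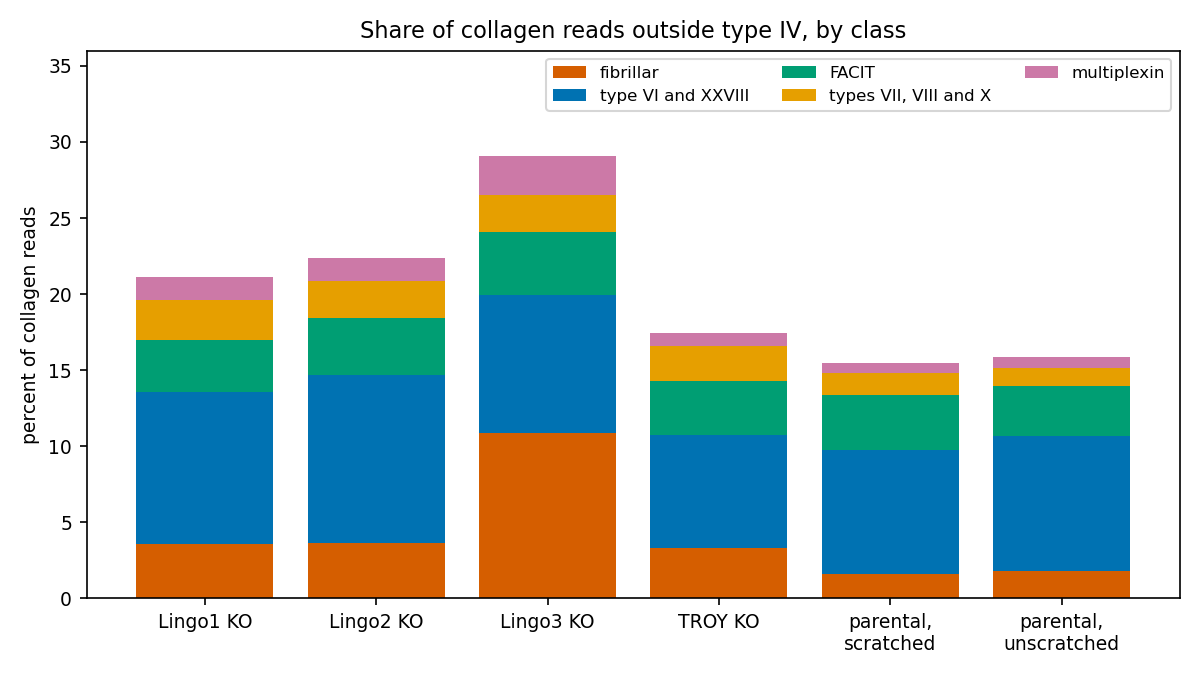
Percent of all collagen reads taken by the classes other than type IV, stacked, in each of the 6 libraries. The fibrillar part is 10.9% in the Lingo3 KO library and between 1.61% and 3.64% in the other 5.

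The 6 type IV genes lie in the mouse genome as 3 head-to-head pairs, each pair reading outward from a common stretch. In GENCODE M21 the starts of Col4a1 and Col4a2 are 21 bases apart on chromosome 8. Those of Col4a3 and Col4a4 are 72 bases apart on chromosome 1, and those of Col4a5 and Col4a6 1309 bases apart on chromosome X. The windows below span 250 bases before to 50 after the RefSeq start of each gene on GRCm38.p6, on the gene's own strand. For Col4a5 the RefSeq start differs from the GENCODE one. The windows are shown because the Col4a1 and Col4a2 levels kept nearly the same ratio over the libraries, while those of Col4a5 and Col4a6 did not. Capitals mark every match to 4 motifs on either strand: the GC box GGGCGG, the CCAAT box CCAAT, the TATA box TATAAA and the AP-1 site TGANTCA, which did not overlap one another here. The Col4a1 window is chr8:11312777-11313076 on the minus strand and the Col4a2 window chr8:11312555-11312854 on the plus strand, so that they share 78 bases. The Col4a6 window is chrX:141474027-141474326 on the minus strand and the Col4a5 window chrX:141475169-141475468 on the plus strand, with no base in common.
Col4a1: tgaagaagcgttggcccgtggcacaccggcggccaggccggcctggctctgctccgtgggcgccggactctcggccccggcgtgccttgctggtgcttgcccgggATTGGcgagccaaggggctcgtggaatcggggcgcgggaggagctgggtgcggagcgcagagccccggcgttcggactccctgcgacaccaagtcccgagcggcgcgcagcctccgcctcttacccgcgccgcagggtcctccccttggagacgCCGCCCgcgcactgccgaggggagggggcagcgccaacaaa
Col4a2: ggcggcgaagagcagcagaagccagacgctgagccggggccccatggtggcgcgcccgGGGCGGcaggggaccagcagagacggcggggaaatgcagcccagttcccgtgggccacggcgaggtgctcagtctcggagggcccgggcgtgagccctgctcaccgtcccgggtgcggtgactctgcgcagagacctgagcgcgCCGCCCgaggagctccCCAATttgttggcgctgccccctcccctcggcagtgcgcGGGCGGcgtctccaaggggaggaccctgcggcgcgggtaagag
Col4a6: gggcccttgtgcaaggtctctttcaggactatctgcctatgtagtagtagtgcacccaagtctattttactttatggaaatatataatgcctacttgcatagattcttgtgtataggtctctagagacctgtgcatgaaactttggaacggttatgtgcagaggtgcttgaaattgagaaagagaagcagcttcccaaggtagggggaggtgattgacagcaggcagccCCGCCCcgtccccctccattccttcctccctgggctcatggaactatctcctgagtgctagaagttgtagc
Col4a5: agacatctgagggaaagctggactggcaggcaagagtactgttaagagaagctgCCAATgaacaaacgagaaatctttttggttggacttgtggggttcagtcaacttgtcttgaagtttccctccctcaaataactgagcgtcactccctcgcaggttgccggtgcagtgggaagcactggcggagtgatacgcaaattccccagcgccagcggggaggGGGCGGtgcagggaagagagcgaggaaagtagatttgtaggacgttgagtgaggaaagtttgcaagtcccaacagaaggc
The Col4a2 window held 3 GC boxes and 1 CCAAT box, and the Col4a1 window 1 of each. The GC box of Col4a1 and the last one of Col4a2 are the same bases of the shared stretch, read on opposite strands. The Col4a5 window held 1 GC box and 1 CCAAT box, while the Col4a6 window held 1 GC box and none of the other motifs searched. None of these 4 windows matched the TATA box or the AP-1 site. Over all 32851 RefSeq windows of this length, 35.7% held a GC box, 37.4% a CCAAT box, 13.6% a TATA box and 7.81% an AP-1 site. A match is a description of letters and not a shown binding site. RefSeq windows were matched for 15 of the 19 tested collagen genes, Col4a4 among them.

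The chains of type IV collagen assemble in fixed combinations: Col4a1 with Col4a2 in nearly all basement membranes, Col4a3 with Col4a4 and Col4a5 in the alveolar and glomerular ones, and Col4a5 with Col4a6 in others such as those of skin and smooth muscle. Col4a1 (ENSMUSG00000031502, chromosome 8, 11198423 to 11312826, GRCm38) stood at 987.0, 744.0, 765.7 and 874.8 CPM in the Lingo1, Lingo2, Lingo3 and TROY mutants, against 535.2 CPM in the scratched and 663.2 CPM in the unscratched parental library. All 4 mutants lay above both parental libraries, at 1.39-fold to 1.84-fold the scratched parental level, short of the size rule. Col4a2 (ENSMUSG00000031503, chromosome 8, 11312805 to 11449287) had 541.7, 409.5, 431.1 and 464.0 CPM in the same mutants, against 288.6 CPM in the scratched and 362.1 CPM in the unscratched parental library. The ratio of Col4a2 to Col4a1 per length spanned 0.598 in TROY KO (0.586 to 0.610) to 0.635 in Lingo3 KO (0.621 to 0.649) over the mutants, and it was 0.608 in the scratched and 0.616 in the unscratched parental library.

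Col4a3 and Col4a4, the partners of Col4a5 in the alveolar basement membrane, were not past the rule in any comparison. Per length Col4a4 exceeded Col4a3 in every library, and the ratio of Col4a3 to Col4a4 lay between 0.231 and 0.266 in the mutants and between 0.259 and 0.269 in the parental libraries. The Lingo3 KO library had the lowest level of both genes, with 138.7 CPM of Col4a3 and 637.9 CPM of Col4a4, against 167.6 and 662.1 CPM in the scratched parental library. For Col4a4 the counting interval of Lingo3 KO (629.0 to 646.9) overlapped that of Lingo2 KO, at 643.0 CPM (633.6 to 652.4).

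Col4a6 (ENSMUSG00000031273, chromosome X, 141165403 to 141474076) fell sharply in the Lingo3 KO library. It stood at 99.7, 77.6, 17.5 and 118.0 CPM in the Lingo1, Lingo2, Lingo3 and TROY mutants, against 137.4 CPM in the scratched and 152.6 CPM in the unscratched parental library. The Lingo3 KO value was 7.86-fold lower (7.18 to 8.62) than the scratched parental one and 8.73-fold lower (7.97 to 9.56) than the unscratched one. It was also lower than in each of the other mutants, by 5.70-fold against Lingo1 KO (5.19 to 6.27), 4.44-fold against Lingo2 KO (4.03 to 4.89) and 6.75-fold against TROY KO (6.16 to 7.41). Those 3 mutants had ratios of 0.73, 0.56 and 0.86 to the scratched parental library and did not pass the rule.

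Col4a5 (ENSMUSG00000031274, chromosome X, 141475385 to 141689234), its neighbour and the highest collagen transcript per length in all libraries but Lingo3 KO, stood at 1296, 1024, 686.9 and 1407 CPM in the Lingo1, Lingo2, Lingo3 and TROY mutants, against 1350 CPM in the scratched and 1520 CPM in the unscratched parental library. The Lingo3 KO library was again the lowest. Its ratio to the scratched parental library was 0.51 (0.50 to 0.52), just short of 2-fold, and it passed the rule against the unscratched parental library at 2.21-fold lower (2.18 to 2.25) and against TROY KO at 2.05-fold lower (2.01 to 2.08). The ratio of Col4a6 to Col4a5 per length was 0.065 in Lingo1 KO, 0.064 in Lingo2 KO, 0.021 in Lingo3 KO (0.020 to 0.023) and 0.071 in TROY KO, against 0.086 in the scratched (0.083 to 0.089) and 0.085 in the unscratched parental library. As a share of the summed type IV RPKM, Col4a5 made up 37.5%, 38.1%, 29.5% and 41.1% in the 4 mutants, against 48.7% in the scratched and 47.5% in the unscratched parental library. Col4a1 made up 25.7%, 24.9%, 29.6% and 23.0% in the mutants, against 17.4% and 18.7% in the parental libraries, so that in the Lingo3 KO library these 2 chains were level.

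**Figure D3:**
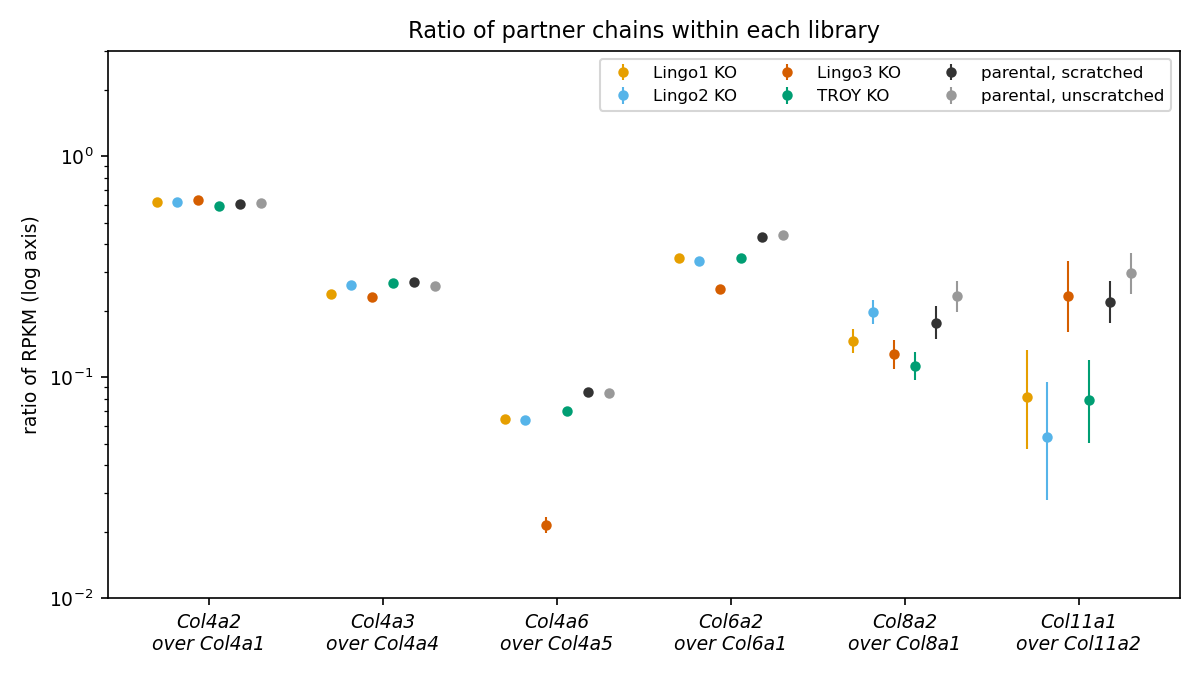
Ratio of the RPKM of partner chains of the same collagen type within each library (log axis), with 95% intervals for counting error; 1 point per library. The Col4a2 to Col4a1 ratio stays between 0.598 and 0.635 in all 6 libraries, whereas the Col4a6 to Col4a5 ratio is 0.021 in the Lingo3 KO library and between 0.064 and 0.086 in the other 5.

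Among fibrillar collagens, Col1a1 was higher in all 4 mutants, Col11a1 was lower in all 4, and Col5a1 was higher in the Lingo3 KO library. The level filter favours the Col11a1 and Col5a1 calls, since each gene passed it only through the libraries where it was high. Col1a1 (ENSMUSG00000001506, chromosome 11, 94936224 to 94953042), which encodes the main chain of type I collagen, stood at 170.2, 135.7, 397.7 and 146.3 CPM in the Lingo1, Lingo2, Lingo3 and TROY mutants, against 44.8 CPM in the scratched and 62.3 CPM in the unscratched parental library. The folds over the scratched parental library were 3.80 (3.58 to 4.04), 3.03 (2.85 to 3.23), 8.88 (8.40 to 9.40) and 3.27 (3.07 to 3.48). Over the unscratched parental library they were 2.73, 2.18, 6.38 and 2.35, each past the rule. The Lingo3 KO library also exceeded each other mutant, at 2.34-fold Lingo1 KO (2.26 to 2.42), 2.93-fold Lingo2 KO (2.83 to 3.04) and 2.72-fold TROY KO (2.63 to 2.81).

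The partner chain of type I collagen did not accompany it. Col1a2, which joins Col1a1 in the usual type I molecule, had 3, 2, 3 and 0 reads in the Lingo1, Lingo2, Lingo3 and TROY mutants, against 2 in the scratched and 0 in the unscratched parental library. At this depth the upper 95% Poisson bound of a count of 0 was 0.123 CPM in the TROY KO and 0.129 CPM in the unscratched parental library. In the Lingo3 KO library 12125 reads of Col1a1 thus stood beside 3 of Col1a2. Col3a1, the type III chain that fibroblasts make alongside type I, had 1, 3, 62 and 3 reads in the mutants, against 0 in both parental libraries. The Lingo3 KO value of 2.03 CPM was 20.6-fold the scratched parental one when the latter was set to a floor of 3 counts. The gene fell below the level filter and was not tested.

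Col5a1 (ENSMUSG00000026837, chromosome 2, 27886425 to 28039514) encodes a chain of type V collagen, which helps set the diameter of type I fibrils. It had 45, 36, 121 and 22 reads in the Lingo1, Lingo2, Lingo3 and TROY mutants. The scratched parental library held 19 and the unscratched one 6. The Lingo3 KO library was 6.35-fold higher (3.90 to 10.9) than the scratched parental one, and it exceeded Lingo1 KO by 2.44-fold (1.72 to 3.52), Lingo2 KO by 3.12-fold (2.13 to 4.66) and TROY KO by 5.43-fold (3.43 to 8.98). The ratios of Lingo1 KO and Lingo2 KO to the scratched parental library, 2.60 (1.49 to 4.71) and 2.04 (1.14 to 3.76), missed the rule, and against the lower unscratched library both passed, at 7.76-fold and 6.08-fold. Its partner Col5a2, below the level filter, had 27, 20, 55 and 26 reads in the mutants, against 20 in the scratched and 16 in the unscratched parental library.

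The type XI chains went the other way. Col11a1 (ENSMUSG00000027966, chromosome 3, 114030540 to 114220718), which starts fibrils in cartilage, had 19, 13, 45 and 26 reads in the Lingo1, Lingo2, Lingo3 and TROY mutants, against 121 in the scratched and 139 in the unscratched parental library. It was lower than in the scratched parental library by 5.80-fold in Lingo1 KO (3.56 to 9.97), 8.65-fold in Lingo2 KO (4.87 to 16.7), 2.69-fold in Lingo3 KO (1.90 to 3.88) and 4.60-fold in TROY KO (2.99 to 7.33). Among the mutants Lingo3 KO was the highest, 3.21-fold above Lingo2 KO (1.70 to 6.48). Col11a1 stood at 0.686, 0.460, 1.48 and 0.864 CPM in the mutants, against 3.98 CPM in the scratched and 4.85 CPM in the unscratched parental library. It therefore passed the level filter only through the parental libraries, which favours calls of lower. Col11a2 (chromosome 17, 34039437 to 34066685), its partner, stood at 4.55, 4.64, 3.41 and 5.88 CPM in the mutants, against 9.80 CPM in the scratched and 8.86 CPM in the unscratched parental library. It was lower in Lingo1 KO at 2.15-fold, Lingo2 KO at 2.11-fold and Lingo3 KO at 2.87-fold (2.29 to 3.63). The ratio of TROY KO to the scratched parental library was 0.60 (0.50 to 0.73), not past the rule. Against the unscratched parental library the Lingo3 KO call alone held for Col11a2, at 2.60-fold lower.

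Outside these classes, Col18a1 was higher than in the scratched parental library in 3 mutants, Col8a1 in 2 and Col8a2 in 1, and Col20a1 was lower in all 4. Col18a1 (ENSMUSG00000001435, chromosome 10, 77052178 to 77166548), the source of the fragment endostatin, stood at 72.4, 58.3, 95.3 and 40.5 CPM in the Lingo1, Lingo2, Lingo3 and TROY mutants, against 25.0 CPM in the scratched and 29.9 CPM in the unscratched parental library. All 4 mutants lay above both parental libraries. The fold over the scratched parental library was 2.90 (2.67 to 3.16) in Lingo1 KO, 2.34 (2.14 to 2.55) in Lingo2 KO and 3.82 (3.52 to 4.14) in Lingo3 KO, while in TROY KO it was 1.62 (1.48 to 1.78) and missed the rule. Lingo3 KO exceeded TROY KO by 2.35-fold (2.20 to 2.52). Against the unscratched parental library the Lingo2 KO fold was 1.95 and no longer passed.

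Col8a1 (ENSMUSG00000068196, chromosome 16, 57624258 to 57754737), a short-chain collagen of endothelial and corneal basement layers, stood at 121.0, 85.9, 85.6 and 101.5 CPM in the mutants, against 48.4 CPM in the scratched and 44.3 CPM in the unscratched parental library. It was higher than in the scratched parental library in Lingo1 KO, at 2.50-fold (2.35 to 2.66), and in TROY KO, at 2.10-fold (1.97 to 2.23). The ratios of Lingo2 KO and Lingo3 KO, 1.78 and 1.77, did not reach 2. Its partner Col8a2 had 10.1, 9.73, 6.23 and 6.55 CPM in the mutants, against 4.90 and 5.90 CPM in the scratched and unscratched parental libraries, and passed in Lingo1 KO at 2.07-fold (1.69 to 2.54), but not against the unscratched library (1.72-fold).

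Among the FACIT genes Col20a1 (ENSMUSG00000016356, chromosome 2, 180986535 to 181018363) stood at 6.86, 8.77, 4.82 and 7.41 CPM in the mutants, against 19.2 CPM in the scratched and 19.8 CPM in the unscratched parental library. It was lower in all 4 mutants, by 2.80-fold (2.38 to 3.32), 2.19-fold (1.89 to 2.55), 3.99-fold (3.32 to 4.81) and 2.59-fold (2.22 to 3.04), and it was lower in all 4 against the unscratched library as well. Its exons share 79 of 5142 bases with the transcript BX649560.1 on the same strand, and how reads in the overlap were assigned was not tested. Col16a1, a FACIT of epithelial and mesenchymal boundaries, had 106.5, 93.4, 89.5 and 101.6 CPM in the mutants, against 70.3 and 82.3 CPM in the scratched and unscratched parental libraries, and Col12a1 had 50.1, 41.3, 55.3 and 54.6 CPM, against 38.6 and 32.1 CPM. Neither passed, with ratios to the scratched parental library of 1.07 to 1.51. Col14a1 varied least among the FACIT genes, between 4.89 and 6.86 CPM in the mutants, against 5.69 and 5.72 CPM in the parental libraries.

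The type VI genes Col6a1 and Col6a2 did not pass in any comparison, and the balance between them differed. Col6a1 stood at 298.7, 265.2, 230.4 and 210.5 CPM in the Lingo1, Lingo2, Lingo3 and TROY mutants, against 165.7 CPM in the scratched and 207.7 CPM in the unscratched parental library. Col6a2 stood at 197.1, 168.4, 109.8 and 138.4 CPM, against 135.9 and 173.5 CPM. The ratio of Col6a2 to Col6a1 per length was 0.347, 0.334, 0.251 (0.241 to 0.261) and 0.346 in the mutants, against 0.432 in the scratched (0.414 to 0.450) and 0.439 in the unscratched parental library, lowest in Lingo3 KO. Col6a3, the long chain that completes the type VI molecule, had 14, 10, 31 and 13 reads in the mutants, against 4 and 3 in the parental libraries.

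**Figure D4:**
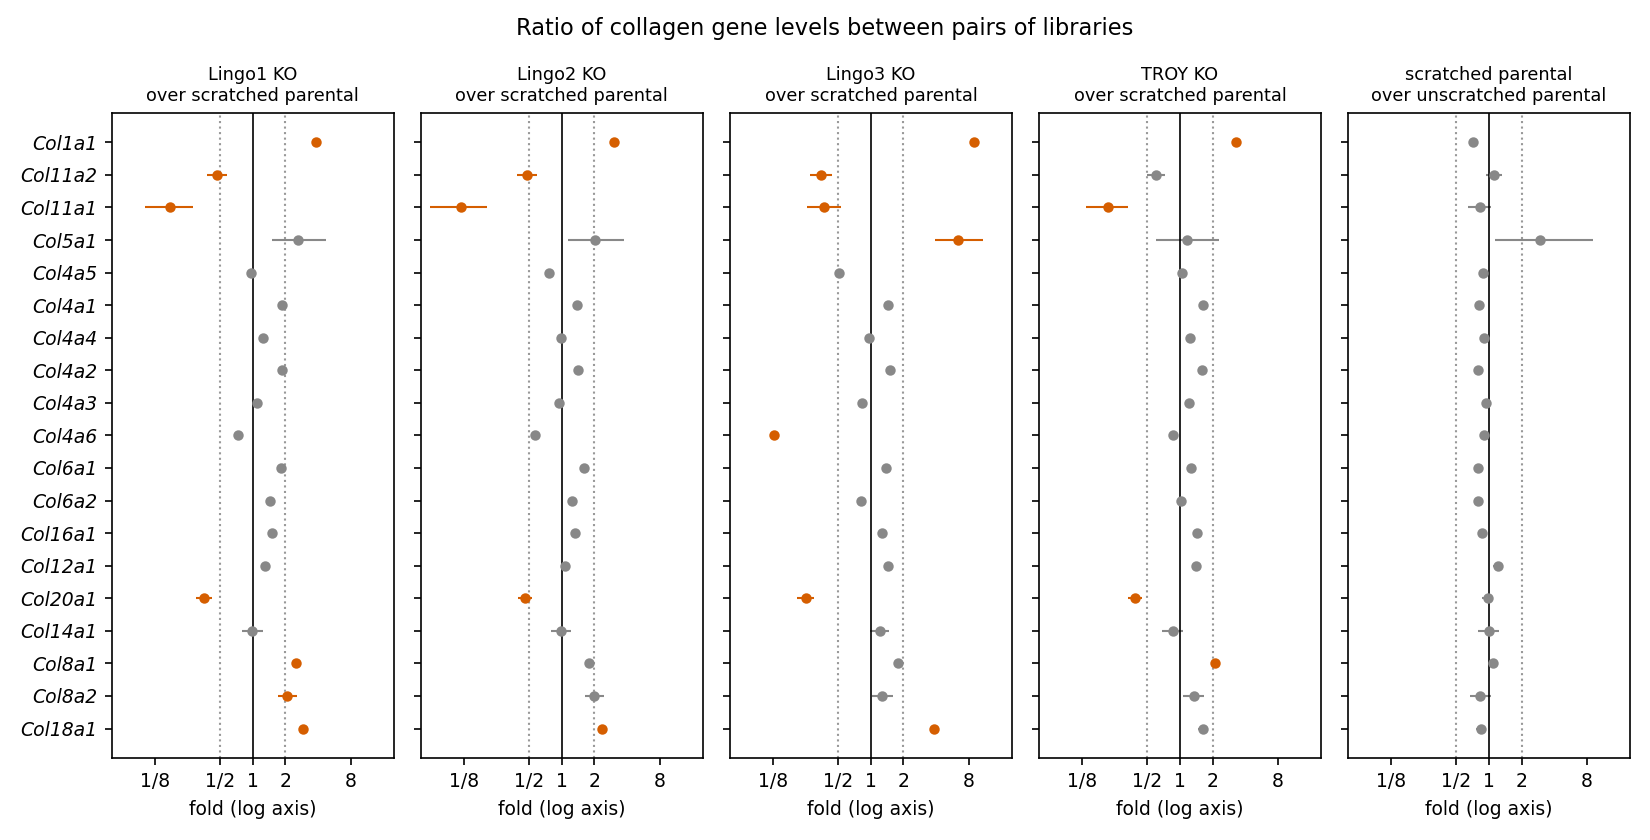
Fold of each of the 19 tested collagen genes (log axis) in the 4 mutants over the scratched parental library and in the scratched over the unscratched parental library, with 95% intervals for counting error; orange points pass the size rule, dotted lines mark 2-fold in either direction. Col1a1 lies to the right and Col11a1 and Col20a1 to the left of the dotted lines in all 4 mutant panels, and no point is orange in the parental panel.

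Counted over the 19 tested genes, each mutant held a larger share of collagen genes past the rule than of all tested genes, a description that rests on few genes. In Lingo1 KO 4 were higher, where 1.95% of all tested genes were, and 3 were lower, where 1.67% were (3.62% in either direction). In Lingo2 KO 2 were higher and 3 lower, beside 2.12% higher and 1.38% lower of all tested genes (3.5% in all). In Lingo3 KO 3 were higher and 4 lower, beside 4.63% and 2.56% (7.19% in all). One of these higher genes was Col5a1, which entered the test only through the Lingo3 KO library, so its count there carries no weight, and 2 remain without it. In TROY KO 2 were higher and 2 lower, beside 1.06% and 1.18% (2.24% in all). Col11a1 was among the lower genes in each mutant. It entered the test only through the parental libraries, so its lower calls carry no weight in these counts. The genes higher in any mutant were Col1a1, Col18a1, Col8a1, Col8a2 and Col5a1, and those lower were Col11a1, Col20a1, Col11a2 and Col4a6. The median log2 fold of the tested collagen genes was 0.54, 0.31, 0.35 and 0.31 in the Lingo1, Lingo2, Lingo3 and TROY comparisons, while that of all tested genes was 0.01, 0.02, 0.01 and 0.02. These comparisons share the scratched parental library, so their calls are not independent of each other.

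Against the unscratched parental library, Lingo1 KO had 4 collagen genes higher, Col5a1 among them, and 2 lower, beside 1.8% and 1.37% of all tested genes (3.17% in either direction). Lingo2 KO had 2 higher, Col5a1 among them, and 2 lower, beside 1.84% and 1.11% (2.95% in all). Lingo3 KO had 3 higher, Col5a1 among them, and 5 lower, beside 4.31% and 2.53% (6.85% in all), the fifth being Col4a5. TROY KO had 2 higher and 2 lower, beside 1.24% and 1.01% (2.25% in all). Col5a1 entered the test only through the Lingo3 KO library, so it carries no weight in these counts. Col1a1 was higher, and Col11a1 and Col20a1 lower, in all 4 mutants against both parental libraries. For Col11a1 the level filter favours these calls.

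Neither class moved as a block. Of the 4 tested fibrillar genes, Col1a1 was higher and Col11a2 lower in Lingo3 KO. Col5a1 was higher but tested only through that library, and Col11a1 was lower but tested only through the parental ones. Of the 6 type IV genes 1 was lower and none higher. The median log2 fold of the type IV genes over the scratched parental library was 0.21, -0.06, -0.16 and 0.30 in the Lingo1, Lingo2, Lingo3 and TROY mutants. Set directly against the other mutants, the Lingo3 KO library had 2 collagen genes higher and 1 lower than Lingo1 KO, beside 1.31% and 0.339% of all tested genes (1.65% in all). It had 3 higher and 1 lower than Lingo2 KO, beside 1.25% and 0.364% (1.61% in all). It had 3 higher and 2 lower than TROY KO, beside 2.13% and 0.48% (2.61% in all). Col1a1 was higher and Col4a6 lower in all 3 of these. Col5a1 was also higher in all 3, which the level filter favours, since that gene reached the filter only through the Lingo3 KO library.

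With the scratch alone, no collagen gene passed the rule in the parental line, where 0.0662% of all tested genes were higher and 0.0166% lower (0.0828% in all). Among the 19 the log2 fold had a median of -0.17, beside -0.01 for all tested genes, and 4 of the 19 had a fold above 1. Col1a1 had a ratio of 0.72 (0.67 to 0.77), Col4a1 of 0.81 (0.79 to 0.82) and Col4a2 of 0.80 (0.77 to 0.82), each scratched over unscratched. Col5a1, at 19 and 6 reads, had a ratio of 2.98 (1.15 to 9.13). All 6 type IV genes and both tested type VI genes had ratios below 1, of 0.78 to 0.94. How far 2 cultures of the same condition would differ was not measured.

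The other 25 collagen genes stayed below the filter. Of these, 5 had no read in any library (Col24a1, Col26a1, Col6a4, Col6a5 and Col6a6), and another 10 never had more than 3 (Col10a1, Col13a1, Col19a1, Col1a2, Col22a1, Col25a1, Col28a1, Col2a1, Col9a1 and Col9a2). That leaves 10 with 4 or more reads in some library. Col7a1, which anchors the epidermal basement membrane, had 21, 9, 51 and 14 reads in the Lingo1, Lingo2, Lingo3 and TROY mutants, against 9 in the scratched and 5 in the unscratched parental library. Col23a1, a transmembrane collagen, had 5, 2, 29 and 1, against 8 and 3. The count was highest in the Lingo3 KO library for these and for Col3a1, Col5a2, Col5a3 and Col6a3. Col5a3 had 7 reads there, at most 1 in the other mutants and 0 in both parental libraries. Col15a1 had 19 to 27 reads in the mutants, against 20 and 29 in the parental libraries, and Col9a3 had 4 to 9, against 17 in both. Col17a1, a hemidesmosome protein of epithelia, and Col27a1 had at most 4 and 5 reads.

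Before export, collagen chains are hydroxylated and glycosylated, folded with the chaperone Serpinh1 and trimmed outside the cell. These steps were read from lists of genes chosen with earlier results of these data known. Of 13 tested hydroxylation and glycosylation genes, P3h2, a prolyl hydroxylase known to act on type IV collagen, was the only one past the rule against the scratched parental library, higher in Lingo1 KO at 2.14-fold (1.92 to 2.38) and in Lingo3 KO at 2.13-fold (1.92 to 2.36). In Lingo2 KO and TROY KO its ratios were 1.83 and 1.93. Against the unscratched parental library P3h2 missed the rule in all 4 mutants, at 1.62-fold to 1.89-fold. Of 13 tested chaperone and secretion genes, Creb3l1, a transcription factor that drives Col1a1 in mouse bone, was higher in Lingo1 KO at 2.45-fold (2.13 to 2.83), but at 1.97-fold it missed the rule against the unscratched parental library. The ratio of Creb3l1 to the scratched parental library was 0.97 (0.82 to 1.14) in Lingo3 KO and 1.71 (1.47 to 1.98) in TROY KO. In Lingo2 KO Creb3l1 stood at 15.2 CPM, against 9.34 CPM in the scratched parental library. Its part in the Col1a1 levels was not tested. Fkbp7, a prolyl isomerase of the same list, was lower in Lingo3 KO against the unscratched parental library alone, by 2.10-fold. Serpinh1 stood at 436.4, 401.0, 361.2 and 416.0 CPM in the Lingo1, Lingo2, Lingo3 and TROY mutants, against 416.6 CPM in the scratched and 471.0 CPM in the unscratched parental library. It was lowest in Lingo3 KO, and no mutant exceeded the unscratched parental level.

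Of 8 tested processing and crosslinking genes, Loxl4, a lysyl oxidase family enzyme, was higher in Lingo3 KO at 2.45-fold (2.29 to 2.63) over the scratched and 2.54-fold over the unscratched parental library. Pcolce2, an enhancer of procollagen trimming, passed in all 4 mutants against the unscratched library, at 2.13-fold to 2.57-fold, and in none against the scratched one, at 1.59-fold to 1.92-fold. None of the 5 tested collagen receptor and uptake genes passed in any mutant against either parental library. Of 3 tested collagen degrading proteases, the collagenase Mmp13 was lower in Lingo3 KO by 2.78-fold (2.43 to 3.20) and the gelatinase Mmp2 lower in TROY KO by 2.32-fold (1.75 to 3.09). Both calls held against the unscratched parental library, where Mmp2 was also lower in Lingo1 KO, by 2.14-fold. Mmp2 in Lingo3 KO had a ratio of 1.66 to the scratched parental library and was 3.85-fold higher than in TROY KO (2.97 to 5.05).

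Of 8 tested fibril associated genes, Bgn, a proteoglycan that binds type I collagen, was higher in all 4 mutants, with 414, 355, 2998 and 159 reads, against 23 in the scratched and 21 in the unscratched parental library. Like Col1a1 it was highest in Lingo3 KO. Tnxb, which links fibrils, was higher in Lingo3 KO at 2.68-fold (2.48 to 2.88), and Fmod, a proteoglycan on type I fibrils, was lower there by 2.06-fold (1.98 to 2.15). Of 8 tested basement membrane partners, Fras1, an epithelial basement membrane protein, was lower in Lingo3 KO by 2.12-fold (2.02 to 2.22) and its relative Frem2 higher at 2.99-fold (2.08 to 4.40), and none passed in the other mutants. The calls of Bgn, Tnxb, Fmod, Fras1 and Frem2 held against the unscratched parental library.

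Fibroblast and bone cell markers were examined beside the rise of Col1a1, and their part in it was not tested. Of the 9 fibroblast markers 5 passed the level filter, and 2, 2, 3 and 1 of these were higher in the Lingo1, Lingo2, Lingo3 and TROY mutants, beside 1.95%, 2.12%, 4.63% and 1.06% of all tested genes. Against the unscratched parental library the counts were 2, 2, 3 and 0. Pdgfrb had 52, 37, 348 and 13 reads in these mutants, against 1 in the scratched and 3 in the unscratched parental library, and Pdgfra had 69, 86, 204 and 79, against 52 and 46. Pdgfrb reached the level filter only through the Lingo3 KO library (0.751 CPM on average without it). Its calls, the 1 in TROY KO among them, therefore carry no weight in these counts. S100a4 had 256, 300, 344 and 158 reads in the mutants, against 101 and 111, and was higher in Lingo1 KO at 2.78-fold, Lingo2 KO at 3.20-fold and Lingo3 KO at 3.40-fold. Tcf21 and Lum, of the same list, had 0 and at most 1 read in every library. Fap and Thy1, below the filter, had 1 to 9 and 8 to 23 reads in the mutants, against 12 to 14 and 19 to 26 in the parental libraries. The fibroblast list summed to 3894 to 4694 CPM in the mutants, against 3418 and 3711 CPM in the parental libraries, nearly all of it Dcn and Vim. Of 8 osteoblast and chondrocyte markers 4 passed the filter, and Alpl and Spp1 were higher in Lingo3 KO at 45.8-fold and 16.1-fold, that is 2 of 4 tested, beside 4.63% of all tested genes. Alpl reached the filter only through that library (0.854 CPM on average without it), so its call carries no weight in the 2 of 4. Both were also higher in Lingo1 KO and Lingo2 KO, at 4.25-fold to 6.59-fold, and Spp1 in TROY KO, at 4.04-fold. Against the unscratched parental library the Alpl call was lost in Lingo1 KO (2.47-fold, 1.25 to 5.14), and the other calls held. Their list summed to 59.7, 62.6, 87.4 and 65.2 CPM in the mutants, against 43.7 and 39.9 CPM in the scratched and unscratched parental libraries. Ibsp and Acan had 0 reads in all 6 libraries and Bglap at most 2. Smooth muscle markers summed to 3.09 to 3.97 CPM in the mutants, against 3.78 and 2.83 CPM in the parental libraries, and immune markers to 1.76 to 3.48 CPM, against 1.87 and 2.06 CPM.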

How the data were processed

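Messenger RNA libraries of 6 MLE12 cultures were read from a deposited table of unscaled counts, made by the authors, in which each line is an Ensembl gene. Its 5 HTSeq summary lines were left out of library sizes. Per the submitters' processing notes, the tools were Trimmomatic 0.39, STAR, HTSeq and edgeR with build GRCm38. The notes give neither their order and settings nor whether strand was used. The other deposited file holds RPKM values and log2 ratios computed by the authors and lists 21 collagen genes. For the 19 tested genes the authors' deposited log2 ratios differed from those computed here by at most 0.021.

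Counts were scaled by TMM over all 6 libraries (edgeR 4.0.16, R 4.3.3), and symbols and exon lengths came from GENCODE M21 on GRCm38. Genes averaging 1 CPM or more were tested by a size rule (fold of at least 2, interval bound beyond 1.5). The rule was tried on simulated Poisson counts, which hold counting error but no variation between cultures or lines. Against 0 reads a fold was taken over a floor of 3 counts. RPKM values in the text were computed from these counts. Alternatives were DESeq2 1.42.0 size factors, total counts, other level filters and folds, the unscratched control and the authors' ratios. Every tested collagen gene was named, as were, of each other list, up to 6 members past the rule. Serpinh1 and the marker genes below the filter or not past the rule were chosen after their values were seen. The members, lists and tests were chosen with earlier results of these data known.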

Additional observations from a re-analysis of the deposited data

Results flagged for a closer look

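For 4 collagen genes the mutants with the highest and the lowest ratio to the scratched parental library lay on opposite sides of 1, each with a counting interval that left out 1. With 1 library per line the difference between mutants was not tested. The ratio of Col4a5 was 1.04 in TROY KO and 0.51 in Lingo3 KO. For Col4a4 it was 1.24 in TROY KO and 0.96 in Lingo3 KO, and for Col4a3 it was 1.22 in TROY KO and 0.83 in Lingo3 KO. The ratio of Col6a2 was 1.45 in Lingo1 KO and 0.81 in Lingo3 KO. The low value came from the Lingo3 KO library in all 4, though for Col4a4 its level overlapped that of Lingo2 KO within counting error.

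Another 5 collagen genes were left out of the comparisons by the level filter and yet had more reads in the Lingo3 KO library than in both parental libraries, with the lower bound of both ratios above 1.5. In the Lingo3 KO library Col6a3 had 31 reads, Col5a2 55, Col3a1 62, Col7a1 51 and Col23a1 29. No other mutant met this condition for any of the genes below the filter.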

How the results depend on the processing

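No paired analysis was possible because each group had 1 library. No ratio of a tested collagen gene past the rule changed direction under any alternative run, and DESeq2 size factors changed no call. With total counts Col8a2 in Lingo1 KO (1.97-fold) and Col8a1 in TROY KO (1.99-fold) fell short, while Col4a5 in Lingo3 KO passed. With a fold of at least 1.5 and a bound beyond 1.2, 12 collagen genes passed in Lingo1 KO (7 before), 9 in Lingo2 KO (5), 8 in TROY KO (4), 7 in Lingo3 KO against Lingo1 KO (3) and 8 against Lingo2 KO (4). With no expression filter 12 passed in Lingo3 KO (7 before), 5 in Lingo3 KO against Lingo1 KO, 8 against Lingo2 KO and 8 against TROY KO (5 before), since more genes were tested. With a mean of at least 5 CPM, 2 passed in Lingo3 KO against Lingo2 KO, since Col11a1 and Col5a1 were not tested. With no bound on the interval, and by the authors' deposited log2 ratios, 1 gene passed between the parental libraries, Col5a1. The authors' ratios were not run for Lingo3 KO against the other mutants, which their deposited table does not compare. With the unscratched parental library as control 6, 4, 8 and 4 collagen genes passed in the Lingo1, Lingo2, Lingo3 and TROY mutants, of which 5, 3, 7 and 4 were shared with the scratched control. The fibrillar share by summed RPKM was 3.95%, 3.98%, 12.0% and 3.67% in the 4 mutants, against 1.73% in the scratched and 1.92% in the unscratched parental library. By reads and without Col1a1 it was 0.172%, 0.197%, 0.392% and 0.186%, against 0.414% and 0.344%. Shifts of the median of all tested genes stayed under 0.1 log2 with every scaling. Low counts limit Col5a1, Col11a1 and the genes below the filter most.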
